A study of Mus musculus with 2 samples.

Results

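The genes described here encode the machinery that transcribes the mouse genome: the subunits of RNA polymerases I, II and III, the Mediator complex, the TATA box binding protein associated factors (TAFs), the general transcription factors of polymerases II and III, and the negative elongation factor NELF. They were taken from a table of gene activity in C2C12 myoblasts by their symbols, which begin with Polr1, Polr2 or Polr3, with Med or Taf and a digit, with Gtf2 or Gtf3, or with Nelf. The symbols also take in the TFII-I family (Gtf2i, Gtf2ird1 and Gtf2ird2), which was kept apart from the general factors. This gave 104 genes with 125 RefSeq entries, out of 20128 gene symbols with 24165 entries in the table. The rule uses symbols and no measured value, though it was set with earlier results of these data known. The symbols Med11, Polr2i, Taf10 and Taf1a have no entry in the table and were not analysed here. The authors kept only genes of a minimum length with mappable sequence. Whether that left out these symbols was not tested.

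C2C12 is a mouse cell line of muscle precursors, which differentiate by fusing into multinucleate fibres. Global run-on sequencing (GRO-seq), in which polymerases already on a gene extend their transcripts in isolated nuclei and the bromouridine-labelled RNA is captured and sequenced, was performed on 2 replicate libraries of these cells. The cells carried no treatment or genetic change, were grown to 80% confluency, and 4 plates went into each isolation of nuclei. The authors pooled both libraries into a single value per RefSeq entry, so there is 1 group, no value per replicate, and no error or test for any level given below, and the order of genes with close levels is not supported by a measured spread.

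Polymerase I makes the large ribosomal RNA precursor, polymerase II makes messenger RNA, and polymerase III makes transfer RNA, 5S ribosomal RNA and other small RNAs. The 3 enzymes share a set of small subunits and differ in their large catalytic subunits and in the general factors that bring them to promoters. Mediator joins gene-specific activators to polymerase II, TFIID and its TAFs recognise the core promoter, and NELF holds polymerase II shortly after the start of transcription. All of these protein-coding genes are themselves transcribed by polymerase II, which is the enzyme whose position GRO-seq reports in their gene bodies.

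Gene activity is the sense-strand read density over the gene body, which begins 1 kb inside the gene and runs to the transcript end, in reads per kilobase of mappable sequence per 1000000 reads (RPKmM). An entry was called active by the authors where its density passed their test against the background of gene deserts at a set false discovery rate, and otherwise the table holds the word Inactive and no value. A gene with several active entries is given below at their median. The myoblast label was checked on marker genes: 6 of 6 myoblast genes were active, from 2.39 RPKmM for Myod1 to 72.45 for Des, which encodes the muscle intermediate filament desmin. Genes of muscle differentiation were active too, 5 of 5 at 0.2 to 6.85. Of the markers of cells that the culture should not hold, 1 of 5 germ cell genes (Sycp3, 0.02), 1 of 3 leukocyte genes (Cd3e, 0.01) and 1 of 3 neuronal genes (Syp, 0.11) were active.

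Nearly the whole machinery was called active in myoblasts. Of the 125 entries, 123 (98.4%) were active, against 70.2% of all entries in the table. By gene, 102 of 104 (98.1%) were active against 68.7% of all symbols. Among members the call reached down to Taf7l at 0.01 RPKmM, the level of the leukocyte marker Cd3e. The 2 inactive genes were Med12l, a paralogue of the Mediator kinase module subunit Med12, and Gtf2a1l, a paralogue of the large TFIIA subunit Gtf2a1 that is known from testis. Both have a single entry, so no gene of the machinery had active and inactive entries together.

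The active members lay in a narrower range than active genes in general. Their activity had a median of 1.375 RPKmM, with quartiles of 0.705 and 2.32, against a median of 0.86 with quartiles of 0.21 and 1.96 over all 13822 active genes. The upper quartile was 3.29 times the lower among the members and 9.33 times among all active genes. The difference lay at the lower end. Only 2 members, Taf7l and Taf9b, were at or below the lower quartile of all active genes (1.96% against 25.2%), while 66 members (64.7%) lay between the quartiles of all, against 49.7%. At 1 RPKmM or above were 62 members (60.8%, against 45.7% of active genes). At 10 RPKmM or above were 2 members, Taf1d and Taf15, where the share of all active genes was 2.83%.

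**Figure D1:**
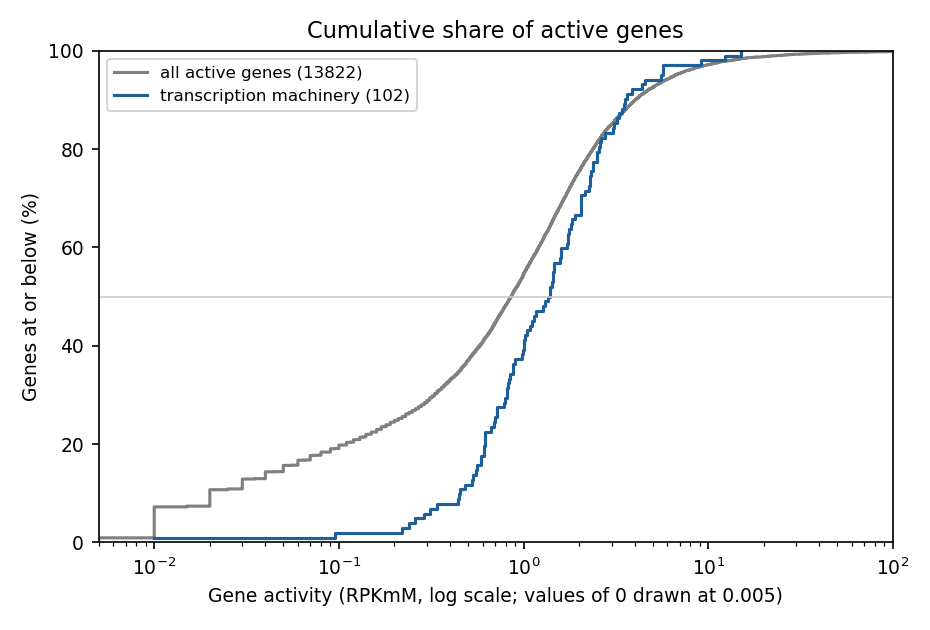
Cumulative share of active genes (y axis, percent) at or below each gene activity (x axis, RPKmM, log scale) for the 102 active genes of the transcription machinery and for all 13822 active genes. The curve of the machinery stays near 0 up to about 0.2 RPKmM, where that of all genes has reached its lower quartile of 0.21, and the curves come together at the upper end.

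Among the 3 members found only in polymerase I, Polr1a, the largest and catalytic subunit, had an activity of 1.44 RPKmM. Polr1b, the other large subunit, was at 1.11, and Polr1e, which acts in the assembly and release of the enzyme, was at 0.61. Their activities thus spanned 2.36-fold. Other subunits of polymerase I have symbols outside the naming rule, and of these Cd3eap was at 2.87, Znrd1 at 1.15 and Twistnb at 0.84, so that the 6 genes together spanned 4.7-fold. The 2 subunits that polymerases I and III share differed by 2.53-fold: Polr1c, which takes part in assembly of both enzymes, was at 3.52 and Polr1d, its smaller partner, at 1.39.

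Of the 5 small subunits common to polymerases I, II and III, Polr2f was the most active at 3.43 RPKmM. Polr2e followed at 1.81 and Polr2k at 1.75, while Polr2h and Polr2l were each at 0.62. Polr2f starts 100 bases from an opposite-strand gene at 0.19 RPKmM, and on its own strand the gene Micall1, at 2.1 RPKmM, ends within 5 kb upstream. The part of that neighbour in the value of Polr2f was not tested.

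Polymerase II had the widest spread of the 3 enzymes. Polr2a, whose product is the catalytic subunit that carries the heptapeptide repeat tail, was at 9.1 RPKmM and above 96.7% of all active entries. Its gene spans chr11:69547499-69572139 on the minus strand of mm9 (24.6 kb), and with all bases mappable its body would hold about 215 of every 1000000 reads. Polr2b, the second-largest subunit, was at 2.28, so that Polr2a was 3.99 times higher than the other large subunit. On its own strand the gene Amac1, which has no match in the table, ends within 5 kb upstream of Polr2a. Polr2m, annotated in mm9 as Grinl1a, was at 2.3 (entries 2.26 and 2.34).

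The remaining polymerase II subunits were far lower. Polr2c, a scaffold subunit of the core enzyme, was at 0.72 RPKmM. Polr2d and Polr2g, which form the stalk of the enzyme, were at 0.525 (entries 0.52 and 0.53) and 0.29, and Polr2j was at 0.48. Polr2a was therefore 31.4 times higher than Polr2g. Polr2g lies on chr19:8867619-8873047, minus strand, 9.13 kb from Taf6l on the same strand, which was nearly as low at 0.24. The short body of Polr2g would hold about 1.28 of every 1000000 reads.

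The polymerase III subunits spanned 5-fold. Of 10 genes, 8 were above the median of all active genes and 7 at 1 RPKmM or above. The catalytic subunit Polr3a was the lowest of these at 0.61, with Crcp, a subunit named outside the rule, at 0.6, and Polr3b, its large partner, was at 0.72. The most active was Polr3k, a small subunit that takes part in termination, at 3.05. Between them lay, among others, Polr3g at 0.98, Polr3gl at 1.04, Polr3e at 1.27, Polr3f at 1.57, Polr3c at 1.59 and Polr3d at 1.75.

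Set side by side, the median activity was 1.11 RPKmM for members found only in polymerase I (3 genes), 0.72 for polymerase II (7 genes), 1.365 for polymerase III (10 genes) and 1.75 for the subunits common to all (5 genes). With the subunits named outside the rule added, it was 1.13 for polymerase I (6 genes) and 1.27 for polymerase III (11 genes). These groups overlapped widely. A polymerase I subunit was higher than a polymerase II subunit in 11 of 21 gene pairs (52.4%), a polymerase III subunit was higher in 40 of 70 (57.1%), and polymerase III was higher than polymerase I in 20 of 30 (66.7%). With their shared subunits added, the medians were 1.415, 1.235 and 1.46 for polymerases I, II and III. The order of the enzymes turned in the largest subunits, where Polr2a was 6.32 times higher than Polr1a and 14.9 times higher than Polr3a. The low median of polymerase II also depends on how the centre is taken: the geometric mean of its 7 genes was 1.15, above the 0.992 of polymerase I and below the 1.27 of polymerase III, so that the order of polymerases I and II turned. With the subunits named outside the rule it did not turn, since the geometric mean of the 6 polymerase I genes was 1.18.

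**Figure D2:**
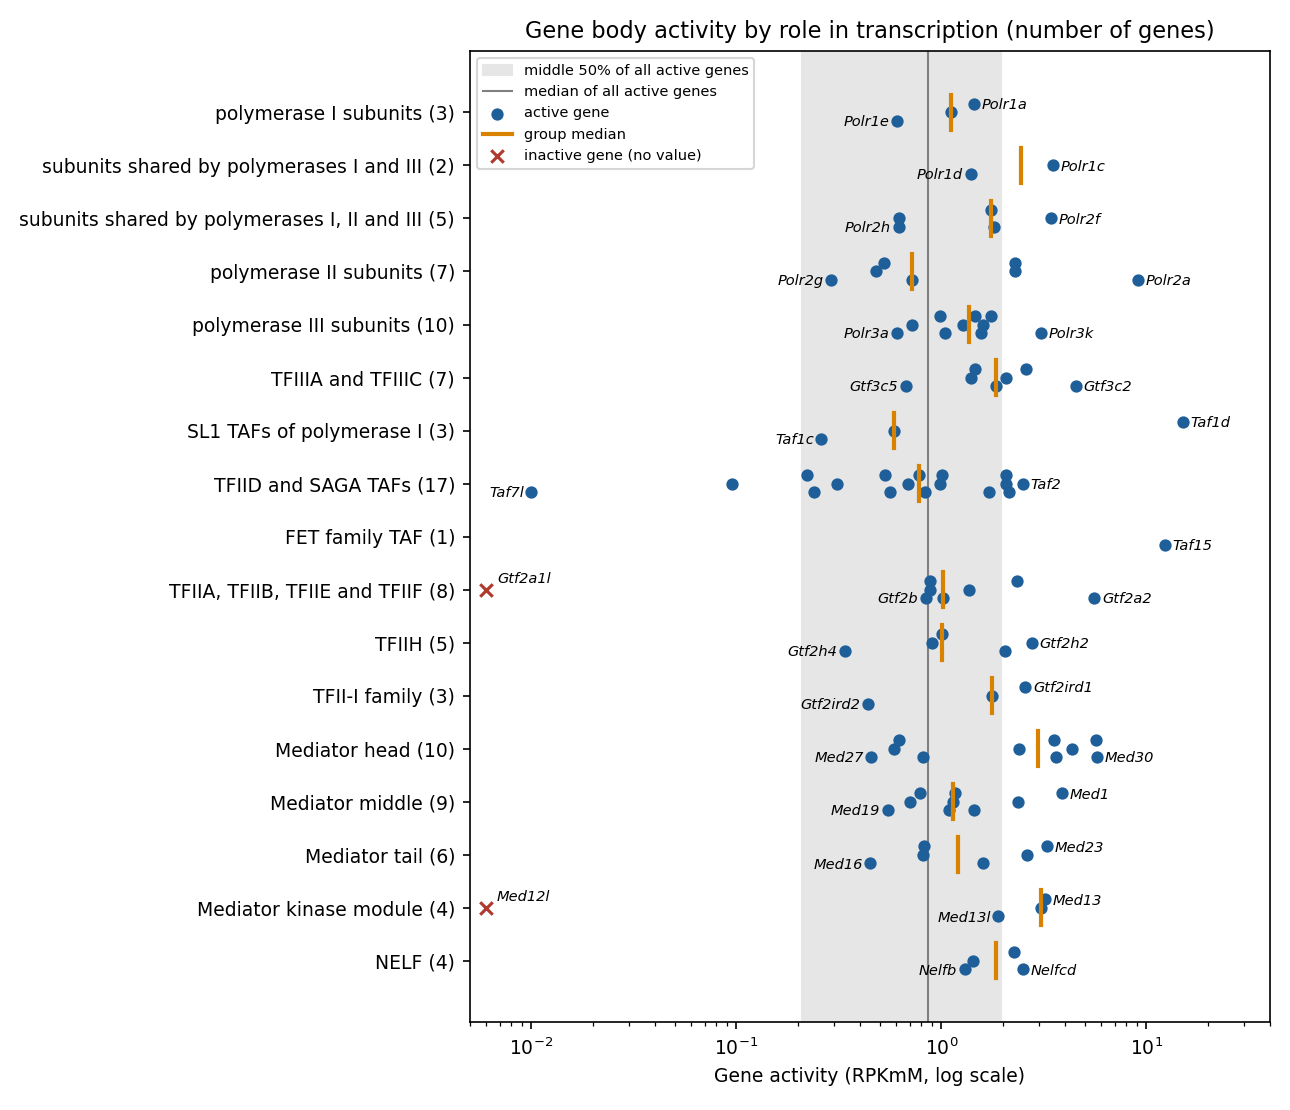
Gene activity (x axis, RPKmM, log scale) of each of the 104 genes, in rows by role with the number of genes in parentheses. Each point is an active gene, each cross at the left edge an inactive gene without a value, the orange bar the group median, and the grey band the middle 50% of all active genes around their median of 0.86. Polr2a at 9.1 stands far to the right of the other polymerase II subunits, and Taf7l at 0.01 far to the left of the other TAFs.

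The factors that bring polymerase III and polymerase I to their promoters were next. All 7 genes of TFIIIA, which binds 5S ribosomal RNA genes, and TFIIIC, which binds the internal promoters of transfer RNA genes, were active with a median of 1.84 RPKmM. They ranged from Gtf3c5 at 0.67 to Gtf3c2 at 4.53, with Gtf3a at 2.06. A same-strand gene, Mpv17 at 1.005, overlaps Gtf3c2, and its part in that value was not tested. In the polymerase I selectivity factor SL1, Taf1b was at 0.59 and Taf1c at 0.26, but Taf1d was at 15.09, the highest of all members.

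Taf1d lies on chr9:15110658-15121441 of mm9, plus strand, and contains 8 small nucleolar RNA genes on its own strand, among them SNORA40, SNORA8 and SNORD5. No other member contained more than 1 small RNA gene. Its 2 coding entries were at 15.09 and its noncoding entry at 22.92, and Med17, 26.3 kb away on the other strand, was at 0.62. Whether reads from the small RNAs contribute to the value was not tested. Over the 6 members with any small RNA gene inside, the median was 1.96 RPKmM, against 1.33 over the 96 active members without.

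The TAFs of TFIID and of the related coactivator SAGA had a low centre and the longest lower tail. All 17 genes were active with a median of 0.78 RPKmM, and 7 of 17 were above the median of all active genes. Taf2, which contacts the initiator, was the highest at 2.49, followed by Taf4 at 2.14, and by Taf1, the largest TFIID subunit, and Taf5l at 2.06 each. Taf9 was at 1.715 (entries 1.54 and 1.89). In the middle were Taf6 at 1.01, Taf8 at 0.99, Taf12 at 0.83, Taf11 at 0.78, Taf3 at 0.69, Taf7 at 0.56 and Taf5 at 0.53. Below Taf13 at 0.31 came paralogues only: Taf6l at 0.24, Taf4b at 0.22, Taf9b at 0.095 and Taf7l at 0.01. Taf15, which associates with TFIID but belongs to the FET family of RNA-binding proteins, was at 12.32 with no small RNA gene inside.

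In TFIIA, TFIIB, TFIIE and TFIIF, 7 of 8 genes were active with a median of 1.02 RPKmM. Gtf2b, the single subunit of TFIIB, was the lowest of them at 0.84. Both TFIIE subunits, Gtf2e1 and Gtf2e2, were at 0.88, and the TFIIF subunits Gtf2f2 and Gtf2f1 were at 1.02 and 1.36. The TFIIA subunits were higher, with Gtf2a1 at 2.33 and Gtf2a2 at 5.58. The gene Bnip2, at 2.48, ends within 5 kb upstream of Gtf2a2 on its strand, and its part in that value was not tested.

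TFIIH, which opens promoter DNA and acts in DNA repair, was covered by 5 genes of its core. They ran from Gtf2h4 at 0.34 RPKmM through Gtf2h3 at 0.9, Gtf2h5 at 1.01 and Gtf2h1 at 2.055 to Gtf2h2 at 2.76. In the TFII-I family, Gtf2i was at 1.76, Gtf2ird1 at 2.57 and Gtf2ird2 at 0.44. These 3 genes are neighbours on chromosome 5, with gaps of 13.5 kb and 42.9 kb, and their activities differed by up to 5.84-fold.

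Mediator was covered by 29 genes, of which 28 were active with a median of 1.5175 RPKmM and 18 were above the median of all active genes. In the head module, which binds polymerase II, the genes listed here split into a low and a high set. Med27 was at 0.455 (4 entries from 0.4 to 0.52), Med29 at 0.59, Med17 at 0.62 and Med28 at 0.81, and no head gene lay between these and Med6 at 2.39. Above it came Med20 at 3.56, Med18 at 3.63, Med8 at 4.36, Med22 at 5.7 and Med30 at 5.72. The genes listed as head thus spanned 12.6-fold. The list counts Med27, Med28, Med29 and Med30 as head. Both the split and the span depend on that, since of the other head genes only Med17 was low. Usp49, at 0.94, overlaps Med20 on the same strand, and Surf1, at 2.16, ends within 5 kb upstream of Med22. Their part in the values was not tested.

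In the middle module the highest was Med1, the subunit bound by nuclear receptors, at 3.89 RPKmM (entries 3.89, 3.2 and 3.89), and the lowest Med19 at 0.55, with a median of 1.14 over 9 genes. In the tail, which meets most activators, the highest of the genes listed here was Med23 at 3.28 and the lowest Med16 at 0.45, with a median of 1.205 over 6 genes. The scaffold subunit Med14 was at 1.59. In the kinase module Med13 was at 3.21, Med12 at 3.08 and Med13l at 1.9, with Med12l inactive. Over its 3 active genes the module was the closest together of the Mediator parts. The module was also the smallest part and the only one with an inactive gene. Its kinase Cdk8 was at 3.2, close to Med12 and Med13, while the second kinase Cdk19 was at 1.46 and their cyclin Ccnc at 1.31.

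The 4 NELF genes were all above the median of all active genes and the closest together of the groups with at least 4 active genes. Nelfb was at 1.3 RPKmM, Nelfa at 1.43, Nelfe at 2.27 and Nelfcd at 2.5, a span of 1.92-fold. In the mm9 annotation these genes carry their older names Cobra1, Whsc2, Rdbp and Th1l.

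Other genes of the same pathways, listed by role and not by level, were active in 30 of 32 cases with a median of 1.395 RPKmM. The lowest active was Brf2, a polymerase III factor, at 0.43, and the highest Hexim1, which holds the elongation kinase P-TEFb inactive, at 9.87. The inactive ones were Tbpl2, an oocyte relative of the TATA box binding protein, and Ubtfl1, an embryonic relative of the polymerase I factor Ubtf. Tbp itself was at 1.89, Tbpl1 at 1.33 and Ubtf at 3.41. The pausing and elongation factors had the highest median of these lists, 3.25 over 11 genes.

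Several members have a paralogue, in some cases known for use in particular tissues (Gtf2a1l, Taf7l, Taf4b) and in others a subunit of another complex (Taf5l, Taf6l) or a family relative (Gtf2ird1, Gtf2ird2). In 11 pairs of all these kinds, the partner was higher in 9 and the paralogue in 2. The partner is the gene with the base name, except that Polr3gl was taken as the partner of Polr3g, a pair whose levels were nearly equal and whose place in the count turns with that choice. Both inactive members belong here: Med12 was at 3.08 RPKmM and Med12l had no value, and Gtf2a1 was at 2.33 and Gtf2a1l had none. No fold is given for these, since the table holds no number for an inactive gene.

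Among pairs with both genes active, the widest difference was between Taf7 at 0.56 and Taf7l, known from germ cells and fat, at 0.01, a ratio of 56. The value of Taf7l is 1 step of the table's rounding, so the ratio is coarse, and its body would hold about 0.154 of every 1000000 reads. Taf9 was 18.1 times higher than Taf9b, whose 2 entries were at 0.06 and 0.13. Taf4 was 9.73 times higher than Taf4b, known from the gonads, at 0.22. Taf6 was 4.21 times higher than the SAGA subunit Taf6l, and Gtf2i was 4 times higher than Gtf2ird2. In these 5 pairs the difference exceeded 2-fold.

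The other pairs were closer or ran the other way. Med13 was 1.69 times higher than Med13l. Polr3gl, the form of the polymerase III subunit used in differentiated cells, was 1.06 times Polr3g, the form known from embryonic stem cells, so that both alternative subunits were transcribed at nearly the same density. Taf5l, the SAGA subunit, was 3.89 times higher than its TFIID partner Taf5, and Gtf2ird1 was 1.46 times higher than Gtf2i. The 2 SAGA paralogues Taf5l and Taf6l thus lay on opposite sides of their TFIID partners.

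**Figure D3:**
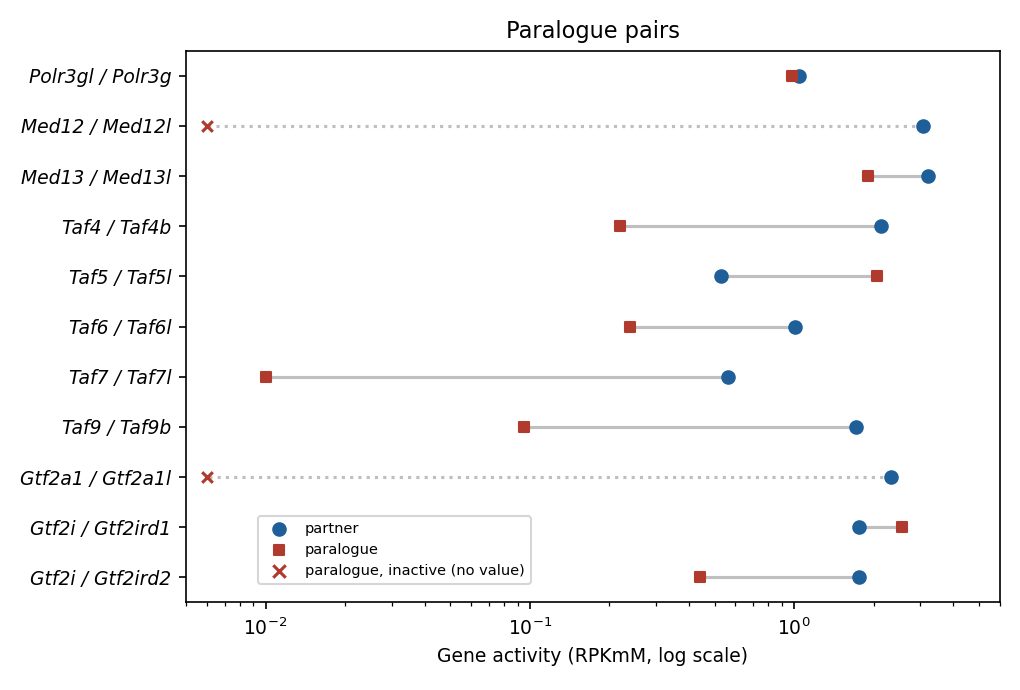
Gene activity (x axis, RPKmM, log scale) of the 11 paralogue pairs, labelled with the partner before the paralogue, the partner drawn as a circle and the paralogue as a square joined by a line. A cross at the left edge and a dotted line stand for a paralogue called inactive, which has no value. The square lies to the right of the circle in 2 pairs, Taf5l and Gtf2ird1.

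The sequence at the start of both inactive paralogues and their partners, and of Taf7l, the least active member with a value, is shown to compare them by the CpG dinucleotides that mark most promoters of widely expressed genes. Each run is 250 bases before to 50 bases after a RefSeq start on GRCm38.p6, written 5′ to 3′ on the gene's strand with CpG in capitals. Positions in GRCm38.p6 are not those of mm9 and were not used with them.
Med12 promoter, chrX:101273841-101274140, plus strand: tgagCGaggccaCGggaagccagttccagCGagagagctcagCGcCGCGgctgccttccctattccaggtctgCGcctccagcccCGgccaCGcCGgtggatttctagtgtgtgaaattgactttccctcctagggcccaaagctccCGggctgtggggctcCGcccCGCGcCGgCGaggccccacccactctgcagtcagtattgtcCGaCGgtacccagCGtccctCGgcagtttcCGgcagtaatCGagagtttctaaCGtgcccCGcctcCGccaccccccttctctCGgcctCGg
Med12l promoter, chr3:59006728-59007027, plus strand: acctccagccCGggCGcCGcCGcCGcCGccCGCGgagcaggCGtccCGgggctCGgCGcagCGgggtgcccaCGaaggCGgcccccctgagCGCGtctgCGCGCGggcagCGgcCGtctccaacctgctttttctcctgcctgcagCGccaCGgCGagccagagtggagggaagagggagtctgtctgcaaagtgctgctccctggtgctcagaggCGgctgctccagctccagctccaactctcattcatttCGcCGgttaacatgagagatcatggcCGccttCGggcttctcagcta
Gtf2a1 downstream promoter, chr12:91589600-91589899, minus strand: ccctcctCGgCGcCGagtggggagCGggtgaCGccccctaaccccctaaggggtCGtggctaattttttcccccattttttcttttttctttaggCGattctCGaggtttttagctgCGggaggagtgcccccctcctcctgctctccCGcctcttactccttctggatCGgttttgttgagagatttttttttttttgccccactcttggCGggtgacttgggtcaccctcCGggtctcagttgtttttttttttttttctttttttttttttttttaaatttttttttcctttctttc
Gtf2a1 upstream promoter, chr12:91590438-91590737, minus strand: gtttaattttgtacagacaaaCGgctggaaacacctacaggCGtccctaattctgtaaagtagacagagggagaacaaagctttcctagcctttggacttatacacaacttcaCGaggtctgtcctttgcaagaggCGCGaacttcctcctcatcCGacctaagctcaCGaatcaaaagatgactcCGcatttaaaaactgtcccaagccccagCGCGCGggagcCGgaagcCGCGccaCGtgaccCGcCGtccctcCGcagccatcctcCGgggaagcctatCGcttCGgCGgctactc
Gtf2a1l promoter, chr17:88668410-88668709, plus strand: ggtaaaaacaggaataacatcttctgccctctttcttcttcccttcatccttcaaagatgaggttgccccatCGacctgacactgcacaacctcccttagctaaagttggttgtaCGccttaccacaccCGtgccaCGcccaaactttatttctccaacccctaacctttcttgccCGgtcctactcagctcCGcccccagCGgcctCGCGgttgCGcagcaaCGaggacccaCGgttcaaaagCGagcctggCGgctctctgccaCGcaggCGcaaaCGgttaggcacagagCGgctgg
Taf7l promoter, chrX:134476441-134476740, minus strand: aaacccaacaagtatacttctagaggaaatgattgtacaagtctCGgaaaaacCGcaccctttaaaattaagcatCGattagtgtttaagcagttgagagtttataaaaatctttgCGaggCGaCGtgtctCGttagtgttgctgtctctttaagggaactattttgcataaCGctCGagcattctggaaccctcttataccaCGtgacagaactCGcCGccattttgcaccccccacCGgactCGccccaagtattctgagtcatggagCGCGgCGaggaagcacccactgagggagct

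The active gene Med12 had 27 CpG in these 300 bases and its inactive paralogue Med12l had 30. The 2 promoters of Gtf2a1 had 13 and 22, and inactive Gtf2a1l had 18. Taf7l, the least active member with a value, had 17. The median was 5 over promoters of genes in the table with no active entry and 19 over those with one, so all 6 promoters shown were above the median of inactive genes.

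RefSeq promoters were found for 88 of the 104 genes, 103 promoters in all. Their median was 22 CpG (quartiles 15 and 30), and 93.2% held at least 10, against 75.1% of 13423 promoters of active genes and 28.3% of 5327 promoters of inactive genes. In 4 genes, Gtf2h4, Gtf3c5, Med16 and Polr1d, no promoter reached 10 CpG, and these had activities of 0.34 to 1.39 RPKmM. The highest number was 61, in Med13l.

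**Figure D4:**
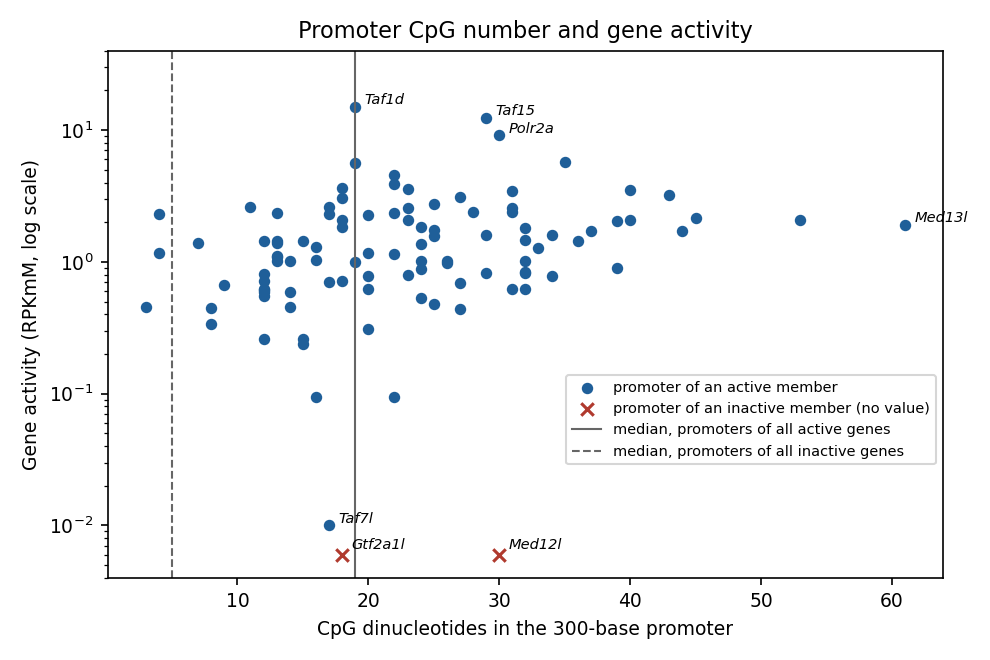
Gene activity (y axis, RPKmM, log scale) against the number of CpG dinucleotides in the 300 bases around the start (x axis), 1 point per RefSeq promoter, with inactive genes as crosses at the lower edge. Vertical lines mark the median of promoters of all active genes (19, solid) and of all inactive genes (5, dashed). Most points lie to the right of the dashed line, the inactive Med12l and Gtf2a1l and the barely active Taf7l among them.

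Short motifs were counted on both strands of the same 300 bases, as letters and not as sites. The ETS motif CCGGAAGT was in 18.4% of the members' promoters, against 7.22% of promoters of active genes and 3.89% of all 32851 promoters. The E box CACGTG was in 20.4%, against 9.51% and 7.15%, and the YY1 motif AAGATGGC in 10.7%, against 4.09% and 2.75%. The TATA box TATAAA was in 13.6%, against 7.45% and 13.6%. The GC box GGGCGG was in 63.1%, against 60.1% and 35.7%, the CCAAT box CCAAT in 30.1%, against 37.4% and 37.4%, and the CRE TGACGTCA in 3.88%, against 3.01% and 1.79%. The palindromic NRF1 motif and the E2F motif TTTCGCGC were in none of the 103, against 1.89% and 0.589% of promoters of active genes. None of these strings of letters contains another.

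The ETS motif is shown in a promoter of each of the 3 polymerases, of both kinds of shared subunit, of Mediator and of TFIID. In each polymerase group and each kind of shared subunit, the gene shown was the only carrier among those with a promoter found. The promoters found for NELF, those of Nelfa and Nelfb, did not hold the motif. The 30 bases around the motif come from RefSeq promoters on GRCm38.p6, with the motif in capitals.
Polr1e, chr4:45018622-45018651, minus strand shown: ggactcaaaaaCCGGAAGTgacattctagg
Polr2j, chr5:136116661-136116690, plus strand shown: ggctgagaaatCCGGAAGTggtcgcgcttc
Polr3b, chr10:84622275-84622304, minus strand shown: tgcggaggaacCCGGAAGTgaccgagccgg
Polr1c, chr17:46248069-46248098, minus strand shown: ccacttgacgtCCGGAAGTgaaggacgtgg
Polr2f, chr15:79141297-79141326, plus strand shown: gccgctgcttcCCGGAAGTaactgcgcctg
Med18, chr4:132463897-132463926, minus strand shown: tcagcttcctaCCGGAAGTgctgaagggag
Taf1, chrX:101532732-101532761, minus strand shown: accagaggctaCCGGAAGTtgaaaaaaagg

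These genes cover a wide range of levels, from 0.48 RPKmM for Polr2j to 3.63 for Med18. Over the 18 genes with the ETS motif in a promoter the median activity was 1.095, against 1.345 over the genes without. It was 1.01 against 1.44 for the E box (19 genes) and 1.0 against 1.395 for the YY1 motif (10 genes). For each of these 3 motifs the median was lower in the genes that carried it. The gene sets overlap, since Gtf3c6, Med31, Taf8 and Taf9b carry both the YY1 motif and the E box. Taf12, Gtf2ird2, Med17 and Gtf2f1 carry both the ETS motif and the E box. Activity was not compared for the other motifs.

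The members often shared their start region with another gene. Of 104 genes placed on mm9, 28 (26.9%) had the start of an opposite-strand gene within 1 kb, against 11.9% of 17857 placed genes and 15.4% of 12862 placed active genes. Of the 28 neighbours 27 were active and 1 had no match in the table. The member was the more active of the pair in 20 of 27, with medians of 1.46 RPKmM for members and 0.92 for neighbours.

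Activities within these head-to-head pairs often differed. Only 11 of 27 pairs were within 2-fold, the median ratio of the larger to the smaller was 2.23, and Spearman's rho over the 27 pairs was 0.289, given as a description. Gtf2h3 and Eif2b1, which start 9 bases apart, were both at 0.9 RPKmM, and Med20 at 3.56 faced the ribosome assembly gene Bysl at 3.32. Med22 at 5.7 faced the ribosomal protein gene Rpl7a at 47.23, and Med29 at 0.59 faced Paf1, an elongation factor gene, at 5.05. Polr1a at 1.44 faced Ptcd3, a mitochondrial ribosome gene, at 3.97. In the other direction, Polr3f at 1.57 faced a gene at 0.04.

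**Figure D5:**
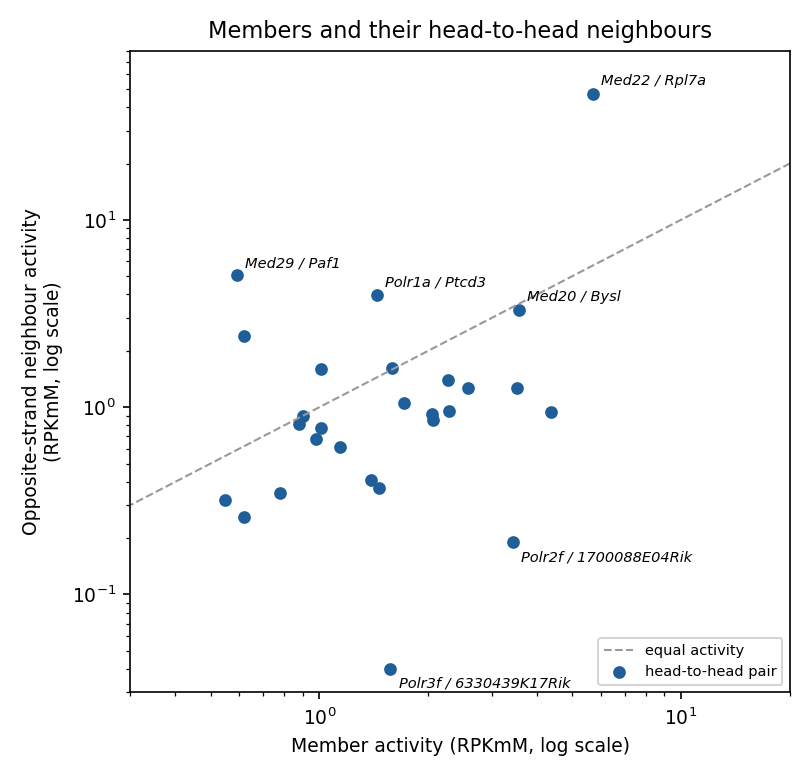
Activity of the opposite-strand neighbour (y axis) against that of the member (x axis), both in RPKmM on log scales, for the 27 pairs whose starts lie within 1 kb and whose genes are both active. The dashed line is equal activity, and 20 points lie below it, where the member is the more active gene. Polr3f, with a neighbour at 0.04, lies far below the line, and Med22 with Rpl7a at 47.23 and Med29 with Paf1 at 5.05 lie well above it.

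The 18 active members with a same-strand gene that overlaps them or ends within 5 kb upstream had a median of 2.395 RPKmM, and the 84 without had 1.22. Low members had such neighbours as well, among them Med16 at 0.45 with a neighbour at 3.21 and Polr2j at 0.48 with Rasa4 at 1.5, and some high members had neighbours that were nearly silent, as Med12 at 3.08 with Nlgn3 at 0.06 and Gtf2h2 at 2.76 with Ocln at 0.06. Whether reads running on from the neighbour contribute was not tested. The median span of all 104 members was 17.7 kb (quartiles 8.38 and 40.5) against 24.5 kb for active genes, and Spearman's rho between span and activity was 0.141 over 102 members and -0.0462 over 12862 active genes, a description across genes that are not replicates.

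Entries of the same gene gave nearly the same value. Of 16 members with several active entries, 2 (12.5%) differed by over 1.5 times, Taf9b (2.17 times) and Taf1d (1.52 times), against 20.8% of all such genes. In 11 of the 16 the highest entry was within 1.1 times the lowest, against 50% of all such genes. These entries overlap in sequence and share their reads, so their closeness is not a measure of replicate error.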

How the data were processed

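Gene activity in RPKmM was deposited by the authors as a single column rounded to 2 decimals. Per the labels and methods, reads were called with CASAVA 1.8 and mapped to mm9 with Bowtie2, uniquely mapped reads were kept, reads at rRNA and tRNA repeats were removed, and both libraries were pooled. Library depth is not in the table, so no counting interval was computed, and values near 0.01 are uncertain by the rounding alone (0.005).

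Genes were taken at the median of their active entries, with no filter beyond the gene selection of the authors and no p-value. Positions came from GENCODE vM1 (mm9), older symbols being matched through RefSeq synonyms, for 104 of 104 genes, and promoters from RefSeq on GRCm38.p6. Reads in a gene body per 1000000 are activity multiplied by the span less 1 kb. Like the members, gene lists and comparisons were chosen with earlier results of these data known. Genes named were the extremes of each role group, inactive members, paralogue pairs, the large polymerase subunits and genes whose entries differed by over 1.5 times; further members are named to complete their groups, except for items that are not reported here, and neighbours were named after their values were seen. Median and count functions were tested on simulated data. Python 3.11.15, numpy 2.4.6, pandas 2.3.3, scipy 1.17.1 and matplotlib 3.10.9 were used.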

Additional observations from a re-analysis of the deposited data

How the results depend on the processing

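Over 12 results and 65 alternatives (highest, lowest or every active entry, a geometric mean with a pseudocount of 0.01, inactive genes at 0, coding entries only, a single count per gene symbol, and a floor on activity), 64 values stayed within 1.5 times. The exception was the centre of the polymerase II subunits, 0.72 RPKmM as a median and 1.15 as a geometric mean, above the 0.992 of the 3 polymerase I members but below the 1.18 of polymerase I with the subunits named outside the symbol rule. Many alternatives could not move a value. Each gene of polymerase I, the subunits common to all, TFIIIA and TFIIIC, and NELF has 1 active entry and none is inactive. There only the geometric mean could differ. Coding entries only left out the noncoding entry of Taf1d alone. Inactive genes at 0 could move only Mediator, the general factors and the whole set. Of 4 alternatives added after seeing the data, all within 1.5 times, leaving out members with a same-strand neighbour lowered the median of all active members from 1.375 to 1.22, leaving out members with a small RNA gene gave 1.33, and adding the subunits named outside the rule gave medians of 1.13 for polymerase I and 1.27 for polymerase III. The activity values used here pool the 2 libraries into 1 value, so no paired analysis could be made from them and no library could be left out. The reads of each library were not used here. The depth of each library is not in the table, and the value of Taf7l, 0.01, is 1 step of the rounding.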
